A study of Mus musculus with 9 samples.

Results

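Wnt ligands, their receptors and the secreted proteins that hold them back were followed in single-nucleus RNA sequencing (sNuc-seq) of the mouse heart after ischemia-reperfusion (I/R). The set held every gene named Wnt, Fzd, Sfrp or Dkk with a number, together with Frzb, Wif1, Lrp5, Lrp6, Axin2, Lgr4, Lgr5 and Rspo1 to Rspo4. It came to 46 of the 23747 genes in the tables, made up of 18 Wnt ligands, 4 R-spondins, 14 receptors, 9 secreted inhibitors and the feedback gene Axin2. The members were chosen by name, with earlier results of these data known.

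Hearts of C57BL/6 mice aged 8 weeks were studied in 3 groups of 3 mice. Sham mice were given vehicle by gavage for 7 days and then underwent surgery in which the coronary artery was not ligated. I/R mice were given the same vehicle, followed by 30 min of ischemia and 24 h of reperfusion. In the SBP group, the gavage held Shexiang Baoxin Pill (SBP, MUSKARDIA in the labels), a traditional Chinese medicine, over 7 days, and the injury was that of the I/R mice. The tissue was taken from below the ligature, so it held only a portion of each heart, and no group received SBP without I/R. The question was where the Wnt system is expressed, what I/R does to it, and whether SBP changes that response.

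Wnt proteins are secreted, lipid-modified signals that act over short distances. They bind Frizzled receptors (Fzd), and with the co-receptors Lrp5 and Lrp6 they stabilize beta-catenin, which then acts with TCF/LEF factors on target genes such as Axin2. Other Wnt proteins, Wnt5a and Wnt11 among them, are best known for beta-catenin-independent signalling. R-spondins bind Lgr4 and Lgr5 and keep Frizzled receptors on the cell surface. The Sfrp proteins, Frzb and Wif1 bind Wnt proteins outside the cell, whereas Dkk1 and Dkk2 bind Lrp5 and Lrp6. In the adult heart the pathway is mostly quiet and is known to return in scar-forming fibroblasts and in vessels after injury.

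The 9 tables held 49171 nuclei, between 4576 and 6418 per mouse. They carried from 10329520 to 18205985 unique molecular identifiers (UMIs, each standing for 1 captured transcript) per mouse, with a median of 1540 to 2031 UMIs per nucleus. These are fewer nuclei than the study states for its whole data set, and its stated minimum of genes per nucleus removed none of them. Barcodes found in more than 1 library numbered 290, on 580 nuclei. Cell types were assigned from marker genes with the members left out, and a name stands for nuclei that resemble that type. There were 14108 fibroblast, 13408 endothelial, 10580 cardiomyocyte and 9189 myeloid nuclei, 619 T cells, 339 B cells, 189 smooth muscle cells and pericytes and 119 Schwann cells, and no epicardial cluster was found. Libraries were not corrected for technical differences before clustering. In the cluster shares below, a difference between libraries cannot be told apart from one between mice. Nuclei of 1 type lay in different clusters in different groups. Cluster 15 held 72.8% to 79.4% of sham fibroblasts but 0.118% to 13.2% of I/R fibroblasts, cardiomyocyte cluster 1 held 70% to 83.8% of sham nuclei, 66.1% in I/R replicate 1 and at most 11.1% in every other I/R or SBP mouse, and myeloid cluster 23, led by Cd163, held 92.9% to 97.3% of sham nuclei and 4.12% to 43.9% of I/R nuclei. The I/R mice also differed among themselves. Cluster 24, led by Saa3 and Cxcl2, made up 62.5% of the myeloid nuclei of I/R replicate 2, and cluster 21, led by Inmt, made up 61.5% of the fibroblasts of I/R replicate 3. RNA of cardiomyocytes was found in all types. Its level was higher in every sham mouse than in every I/R mouse in fibroblasts, endothelial cells, myeloid cells, T cells and B cells, and the ranges overlapped in Schwann and mural cells. The summed level of 7 cardiomyocyte markers in fibroblasts was 4505 to 5633 CPM (UMI counts on the standard library-size scale) in sham and 1571 to 2403 CPM in I/R.

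Most of the members were rare. Together they gave 65621 UMIs, and 3 receptors, Lrp6 with 22036, Lgr4 with 9027 and Lrp5 with 8896, and the ligand Wnt5b with 7185 made up most of these. At the other end, 12 members had 15 UMIs or fewer over all nuclei and are called near absent here. They were Wnt1, Wnt3, Wnt3a, Wnt7a, Wnt7b, Wnt8b, Wnt10a, Wnt16, Rspo4, Fzd9, Fzd10 and Dkk1. The count of a gene in these libraries is taken near the 3' end of transcripts, so levels were not divided by gene length. Longer genes still had more UMIs (Spearman's rho 0.424 over 23084 genes). Lrp6, Lgr4, Lrp5 and Wnt5b span 96.6 to 120.5 kb, and the part of length in the order of members was not tested. Levels below are CPM within the UMIs of a cell type in a mouse, given as the mean ± SD over mice with at least 20 nuclei of the type. They describe the types and were not tested, because clusters came from the same nuclei. Of the 34 members above 15 UMIs, 17 were highest in fibroblasts among the 4 frequent types, 10 in endothelial cells, 6 in cardiomyocytes and 1 in myeloid cells. They were highest there in all 9 mice for 7, 5, 2 and 1 of these, and some were near ties, such as Fzd5 with 1.93 CPM in endothelial and 1.89 CPM in myeloid cells.

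**Figure D1:**
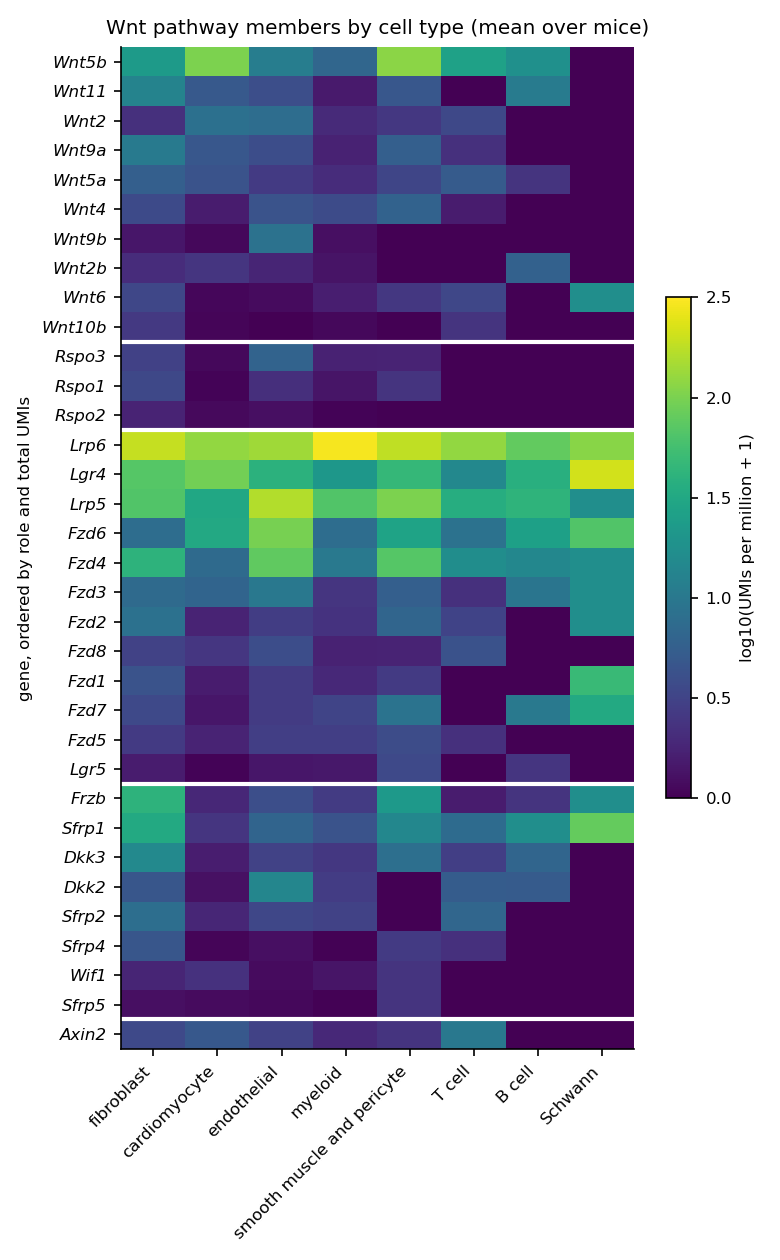
Mean level of the 34 members above 15 UMIs (rows, grouped by role with white lines between ligands, R-spondins, receptors, inhibitors and Axin2) in 8 cell types (columns), as log10 of CPM plus 1. Of the 4 frequent types, fibroblasts are brightest for Frzb, Sfrp1, Sfrp2, Sfrp4 and Dkk3 but not for Dkk2 or Wif1, and endothelial cells for Fzd3, Fzd4, Fzd5, Fzd6 and Fzd8 but not for Fzd1, Fzd2 or Fzd7; the Schwann column rests on 1 mouse.

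Wnt5b was the ligand with the most UMIs. Its gene (chr6:119432531-119544347, minus strand, GRCm38) gave 99.6 ± 35.6 CPM in cardiomyocytes (n = 9), and cardiomyocytes held 82.6% of its UMIs. Smooth muscle cells and pericytes reached 116 ± 37.7 CPM (n = 5 mice with enough nuclei), fibroblasts 22.1 CPM and endothelial cells 10.4 CPM. Cardiomyocytes were the highest of the 4 frequent types in 9 of 9 mice. Between cardiomyocytes and mural cells the ranges overlapped. Levels in the remaining types have to be read against stray cardiomyocyte RNA. In sham endothelial cells Wnt5b stood at 12.2% to 14.7% of its cardiomyocyte level and the cardiomyocyte markers at 13.1% to 19.1% of theirs, whereas in sham fibroblasts Wnt5b stood at 25.7% to 38.5% and the markers at 8.71% to 11.8%. The fibroblast share of Wnt5b lay above that of the cardiomyocyte markers in every sham mouse, and the endothelial ranges overlapped. Markers of mural cells were also present in sham fibroblast sums, at 337 to 411 CPM against 2912 to 4980 CPM in mural cells. Their part in fibroblast Wnt5b was not tested.

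The remaining ligands had few UMIs and distinct sources. Wnt11 (721 UMIs over all nuclei) was highest in fibroblasts at 12 ± 4.66 CPM in 9 of 9 mice, and within the fibroblasts it was 20.1 ± 7.19 CPM in the adventitial cluster, the cells marked by Pi16. Wnt9a (604 UMIs) was 9.52 ± 3.83 CPM in fibroblasts, the highest of the frequent types in 8 of 9 mice, which held 49% of its UMIs. Wnt5a (414 UMIs) gave 4.76 ± 2.59 CPM in fibroblasts and 3.39 ± 1.31 CPM in cardiomyocytes, and these did not differ beyond their spread. Wnt2 (646 UMIs) came from cardiomyocytes (7.41 ± 4.71 CPM) and endothelial cells (6.8 ± 4.19 CPM), which again overlapped. Wnt9b (203 UMIs), a ligand known from the endocardium of the developing valves, was endothelial in 9 of 9 mice, with 88.7% of its UMIs there. Wnt6 and Wnt10b were seldom found, and 75% and 83.9% of their 96 and 56 UMIs lay in fibroblasts.

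Levels of Wnt2, Wnt9b, Wnt11, Rspo3 and Dkk2 were also compared between endothelial clusters. Endocardial nuclei, which line the chambers, had 11.7 ± 15.8 CPM of Wnt9b and 12.9 ± 8.27 CPM of Wnt2 (n = 9 mice each). Lymphatic nuclei had 44.5 ± 18.9 CPM of Rspo3, whose gene lies at chr10:29452416-29535867. The values of single mice ran from 16.6 to 74.8 CPM, above the 1.88 ± 2.1 CPM of endocardial nuclei. Arterial nuclei had 22.2 ± 22.8 CPM of Wnt11, from 18 UMIs, and 58.9 ± 69.8 CPM of Dkk2, from 52 UMIs. Endocardial nuclei had 223 UMIs of Dkk2, at 21.6 ± 29.9 CPM, and these ranges overlapped.

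The spread between mice was wide for 2 of these genes. Endocardial Wnt9b was 4.74, 5.65 and 0 CPM in the sham mice, 0, 18.1 and 1.08 CPM in the I/R mice and 47.1, 3.99 and 24.9 CPM in the SBP mice. Endocardial Dkk2 was 3.55, 54.1 and 0 CPM in sham, 1.51, 8.04 and 0 CPM in I/R, and 47.8, 1.33 and 77.8 CPM in SBP. For Dkk2, high and low mice were found in sham and in SBP alike, and for Wnt9b the 2 highest mice were SBP mice while the lowest SBP mouse lay within the sham range. Each endocardial value rested on 276 to 663 nuclei.

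**Figure D2:**
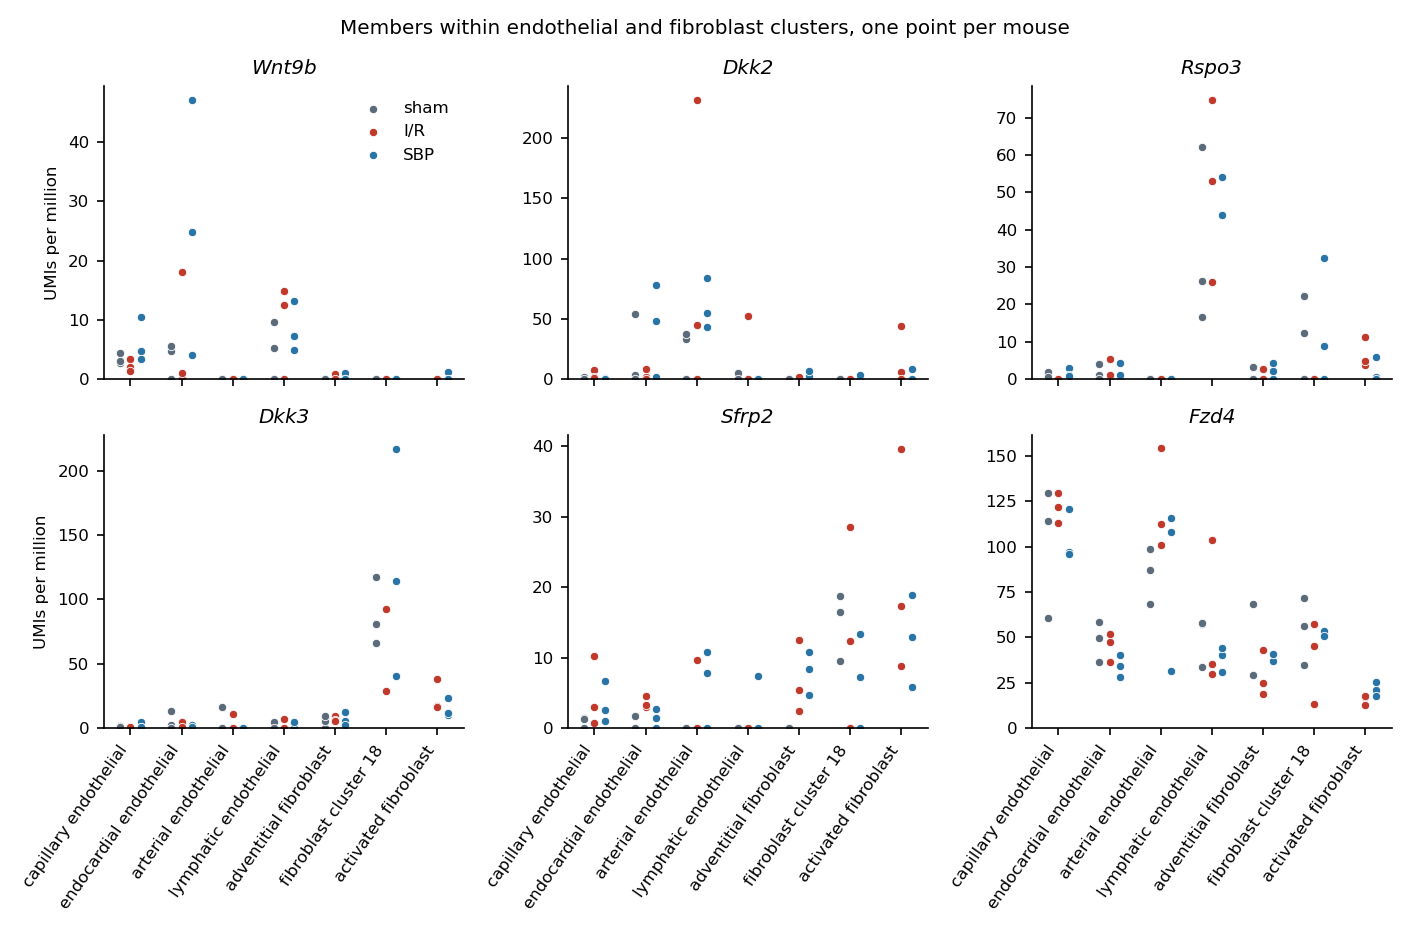
CPM of 6 members (panels) in 4 endothelial and 3 fibroblast clusters (x axis), with 1 point per mouse with at least 20 nuclei of the cluster and colours for the groups. Rspo3 stands out in lymphatic nuclei, Dkk3 in fibroblast cluster 18 and Sfrp2 in activated fibroblasts, while Fzd4 is high in capillary and arterial nuclei and lowest in activated fibroblasts; Wnt9b and Dkk2 vary between mice of the same group.

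Fzd4, the receptor that retinal and brain capillaries need for Norrin and Wnt signals, reached 77.2 ± 16.1 CPM in endothelial cells, 68.5 ± 27.8 CPM in smooth muscle cells and pericytes (n = 5) and 40.3 CPM in fibroblasts. It was lower in endocardial nuclei, at 42.5 ± 9.89 CPM, than in the 3 capillary clusters, whose means ran from 97.9 to 123 CPM. Fzd6 was endothelial too, at 95.4 ± 9.06 CPM, with 30.9 CPM in cardiomyocytes. Fzd2 was fibroblastic at 7.52 ± 2.39 CPM, with 65.3% of its 372 UMIs. Of the co-receptors, Lrp5 was highest in endothelial cells, at 162 ± 25.6 CPM, and Lrp6 in myeloid cells, at 288 ± 54.5 CPM, each in 9 of 9 mice. Among myeloid nuclei Lrp6 was 378 ± 83.2 CPM in cluster 23, led by the resident macrophage gene Cd163, and 204 ± 51.1 CPM in cluster 25, led by Gpnmb (n = 9 and 6 mice). Lgr4, the R-spondin receptor, was 91.9 ± 16.5 CPM in cardiomyocytes and 68.9 CPM in fibroblasts, and 210 CPM in the 1 mouse with at least 20 Schwann nuclei. Lgr5 had 40 UMIs in all. The 3 members of highest level were Lrp6 (189 CPM), Lgr4 and Lrp5 (65.7 CPM) in fibroblasts, Lrp6 (123 CPM), Wnt5b and Lgr4 in cardiomyocytes, Lrp5, Lrp6 (138 CPM) and Fzd6 in endothelial cells, and Lrp6, Lrp5 (64.5 CPM) and Lgr4 (20.2 CPM) in myeloid cells.

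Of the inhibitors, Frzb, Sfrp1, Sfrp2, Sfrp4 and Dkk3 had most of their UMIs in fibroblasts. Frzb (chr2:80411970-80447625, minus strand) gave 40.5 ± 9.89 CPM in fibroblasts, which held 87.4% of its 1437 UMIs, and Sfrp1 gave 32 ± 11.4 CPM there, with 76% of 1352 UMIs. Endothelial cells, the next of the 4 frequent types for both, had 3.02 and 5.35 CPM. Sfrp4 held 88.5% of its 130 UMIs in fibroblasts. Dkk3 held 77.6% of its 563 UMIs there, with 157 UMIs in cluster 18 and 135 in activated fibroblasts. Cluster 18 was a fibroblast cluster of 752 nuclei in which Col4a6 and Epha3 were among the leading genes. It had 87.3 ± 59.2 CPM of Dkk3 and the other fibroblast clusters had means of 2.76 to 19.5 CPM. Dkk2 had 58.7% of its UMIs in endothelial cells (13.1 ± 12.7 CPM), which were the highest of the frequent types in 5 of 9 mice, and the activated fibroblasts of I/R replicate 1 also had 44 CPM. Wif1 had 106 UMIs, of which cardiomyocytes held 67.9%, and 32 of those 72 cardiomyocyte UMIs came from sham replicate 2 alone. Axin2, a readout of beta-catenin activity that also dampens it, was low in all types, with 3.86 ± 1.12 CPM in cardiomyocytes, 2.54 CPM in fibroblasts and 2.1 CPM in endothelial cells. The Axin2 level of 9.04 CPM in T cells came from 7 UMIs.

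In the less frequent types the leading members were Lrp6 and Wnt5b in smooth muscle cells and pericytes (180 and 116 CPM, n = 5), Lrp6 and Lrp5 in T cells (122 and 35.4 CPM, n = 9) and B cells (77.8 and 41.2 CPM, n = 7), and Lgr4 and Lrp6 in Schwann cells (210 and 113 CPM, 1 mouse). In B cells 40 and 14 UMIs lay behind these values. T cells and B cells also carried cardiomyocyte markers, at 14.2% to 18.1% and 19.3% to 31.3% of the cardiomyocyte level in sham, so members with few UMIs in them are not read as expressed here.

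The effect of I/R was tested on UMIs summed per mouse and cell type, scaled between mice by the trimmed mean method (TMM), with limma on log2(CPM + 1). Calls required a p of at most 0.05 after Benjamini-Hochberg adjustment over all genes tested in that type, and an absolute log2 fold change over 0.25. On this scale the change of low genes is understated. The p-values measure the spread between 3 mice per group. Levels of genes from here on are TMM-scaled CPM unless stated otherwise. Sums of markers are CPM without TMM scaling.

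In fibroblasts, Fzd4 and Wnt5b fell after I/R. These were the only members called, 2 of the 22 that passed the filter on low values, and both were lower. Over all 13065 genes tested in fibroblasts 11.5% were called and 4.8% were called lower, so the share of members called (9.09%) was close to the background. Their promoters are shown because both genes were called lower in the same cells. The sequences run from 250 bases before to 50 after a transcription start and are RefSeq sequences of GRCm38.p6. Capitals mark the TCF/LEF core motif CTTTGAT or its reverse complement ATCAAAG, which 3.73% of all 32851 such windows hold on either strand. The Fzd4 window (chr7:89404116-89404415, plus strand) had no match, nor had the most upstream of 3 Wnt5b windows (chr6:119544298-119544597, minus strand). The middle Wnt5b window (chr6:119467162-119467461, minus strand), whose sequence is not printed, had no match. The most downstream Wnt5b window (chr6:119449337-119449636, minus strand) had 1 match. Of the 31 members with a window, 2 had a match, the other being Wnt11. A match describes these letters and says nothing of binding.
Fzd4: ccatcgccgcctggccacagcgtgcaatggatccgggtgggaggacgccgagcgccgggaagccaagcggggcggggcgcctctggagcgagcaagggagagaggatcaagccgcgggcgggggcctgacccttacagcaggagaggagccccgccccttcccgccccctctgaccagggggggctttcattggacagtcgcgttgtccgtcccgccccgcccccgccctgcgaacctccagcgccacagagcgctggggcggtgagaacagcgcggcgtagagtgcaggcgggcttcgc
Wnt5b upstream start: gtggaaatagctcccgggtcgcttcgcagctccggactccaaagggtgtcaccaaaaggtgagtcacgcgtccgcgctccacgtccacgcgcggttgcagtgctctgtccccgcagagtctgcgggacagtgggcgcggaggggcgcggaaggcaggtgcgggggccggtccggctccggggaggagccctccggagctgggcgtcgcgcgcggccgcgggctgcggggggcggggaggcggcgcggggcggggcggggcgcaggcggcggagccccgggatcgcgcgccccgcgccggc
Wnt5b downstream start: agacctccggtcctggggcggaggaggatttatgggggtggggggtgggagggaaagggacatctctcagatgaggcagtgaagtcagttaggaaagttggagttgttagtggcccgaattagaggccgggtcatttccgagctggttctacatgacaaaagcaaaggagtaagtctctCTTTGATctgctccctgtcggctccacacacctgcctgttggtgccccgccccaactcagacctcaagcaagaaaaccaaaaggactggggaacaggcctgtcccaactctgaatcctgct

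Fzd4 (chr7:89404355-89413134, plus strand) was 59.7, 40.5 and 73.3 CPM in the fibroblasts of the sham mice, 23.5, 21.2 and 41.1 CPM in the I/R mice and 31, 37.7 and 37.2 CPM in the SBP mice. The highest I/R mouse, replicate 3, just overlapped the lowest sham mouse, replicate 2, and the SBP mice lay within the I/R range and below every sham mouse. The mean was 57.8 ± 16.5 CPM in sham and 28.6 ± 10.9 CPM in I/R, and 2 of 3 I/R mice were below every sham mouse. The log2 fold change was −1.01 with an SE of 0.264 (adjusted p 0.0298, limma). The call was lost without sham replicate 1 (adjusted p 0.088), sham replicate 3 (0.117), I/R replicate 1 (0.0736) or I/R replicate 2 (0.115).

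Activated fibroblasts, marked by Postn, Tnc and Cthrc1, also differed in share between sham and the injured groups. They made up 0.255% to 0.339% of sham fibroblasts, 8.67% to 32.2% of I/R fibroblasts and 8.62% to 20% of SBP fibroblasts. Their Fzd4 level was 18.6 ± 4.34 CPM (n = 6 I/R and SBP mice, without TMM scaling), against means of 36.8 to 52.3 CPM in the other 6 fibroblast clusters. When the activated cluster was left out, a choice made after seeing the data, Fzd4 was 0.65 lower in I/R on the log2 scale and not called (adjusted p 0.196), and 4.2% of 12275 genes were called. Within groups, the share of activated fibroblasts and Fzd4 did not keep 1 order. I/R replicate 3 had the fewest activated fibroblasts and the highest Fzd4 of its group, and 61.5% of its fibroblasts lay in cluster 21, whereas SBP replicate 2 had both the most activated fibroblasts and the highest Fzd4 of the SBP mice. The part of these cluster shares in the difference was not tested beyond leaving out the activated cluster. Endothelial RNA was a small presence in these sums. The 8 endothelial markers summed to 264 to 363 CPM in sham fibroblasts and 178 to 269 CPM in I/R fibroblasts. In endothelial cells they summed to at least 6016 CPM. The 7 mural markers summed to 337 to 411 CPM in sham fibroblasts and 214 to 280 CPM in I/R fibroblasts. The part of either in the result was not tested.

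Wnt5b in fibroblasts was 20.2, 38.6 and 32.8 CPM in sham, 20.4, 9.61 and 13.6 CPM in I/R and 16.4, 22.4 and 26 CPM in SBP. The lowest sham mouse and the highest I/R mouse, both replicate 1, were at the same level and the other mice were apart. The mean was 30.6 ± 9.42 CPM in sham and 14.5 ± 5.45 CPM in I/R, a log2 fold change of −1.03 with an SE of 0.3 (adjusted p 0.0457, limma). The gene overlaps Fbxl14 on the opposite strand, and whether counting used strand is not given in the sources used here. This call was close to the threshold and was lost when any of sham replicates 2 and 3, I/R replicates 2 and 3 and the SBP replicates was left out. The adjusted p was then between 0.0529 (SBP replicate 1 left out) and 0.17 (I/R replicate 2 left out). Without the activated cluster the fold change was −1.19 and the adjusted p 0.0783. Cardiomyocyte markers also fell in these sums, to between 4.82% and 6.58% of their cardiomyocyte level in I/R from 8.71% to 11.8% in sham, while Wnt5b was at 10.1% to 23.9% of its own cardiomyocyte level in I/R. Mural markers in these sums were 337 to 411 CPM in sham and 214 to 280 CPM in I/R. The part of these markers in the result was not tested. In cardiomyocytes themselves Wnt5b was 97.5 ± 29.6 CPM in sham and 91.6 ± 39.7 CPM in I/R (log2 fold change −0.15, adjusted p 0.887).

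Wnt5b was also read in the adventitial cluster. Without TMM scaling, adventitial fibroblasts had 32.7, 64 and 63.9 CPM in the sham mice, 9.33, 3.3 and 12.1 CPM in I/R and 17, 38.7 and 28 CPM in SBP, from 107 UMIs in all. These values are a description of a cluster chosen after they were seen, and were not tested.

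**Figure D3:**
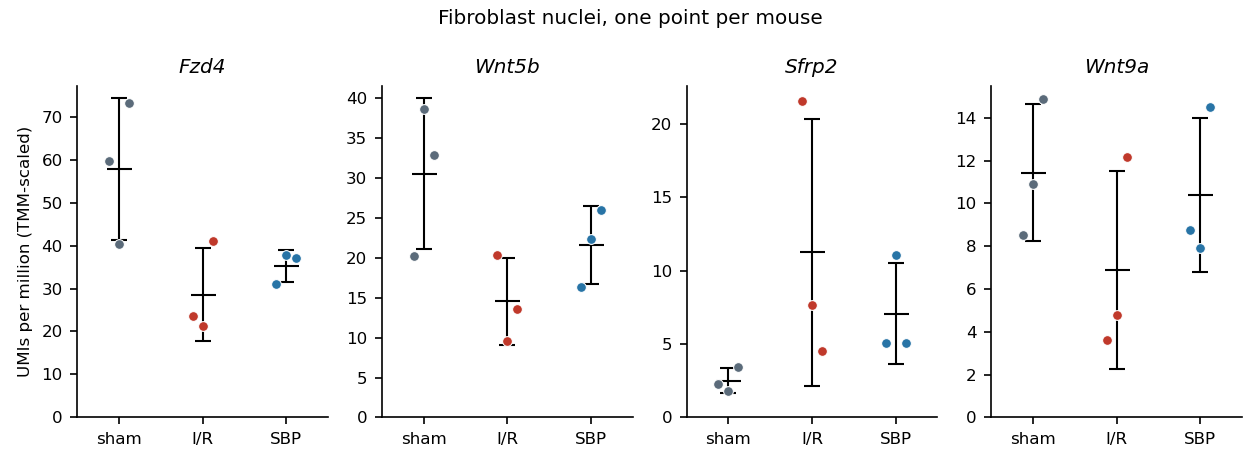
TMM-scaled CPM of Fzd4, Wnt5b, Sfrp2 and Wnt9a in fibroblasts (y axes from 0) in the 3 groups, with 1 point per mouse and bars for mean and SD. Fzd4 and Wnt5b are lower in I/R than in sham with 1 pair of mice at the same level. The 3 I/R points of Sfrp2 lie above the 3 sham points. The SBP points of Fzd4 and Sfrp2 lie within the I/R range. The higher SBP points of Wnt5b lie above the I/R range and within the sham range.

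Sfrp2, a secreted Wnt-binding protein made in scars, was the member with the largest fold change in fibroblasts and did not pass the test. Its gene lies at chr3:83766321-83774316 and overlaps Gm26771 on the opposite strand. The sham mice had 2.24, 1.82 and 3.46 CPM, the I/R mice 21.6, 7.63 and 4.54 CPM and the SBP mice 5.07, 11.1 and 5.09 CPM. All I/R mice were above all sham mice, as was so in some direction for 26.9% of the genes tested between I/R and sham. All SBP mice were above all sham mice too, where 27.2% of genes were apart in some direction between SBP and sham. The log2 fold change was 1.58 with an SE of 0.477 (adjusted p 0.0554, limma), from 20 UMIs in sham and 135 in I/R. It reached the level of the filter in 1 of 3 sham mice and in all I/R and SBP mice. It thus passed the filter through the injured groups, where it was high, and its p-values and lack of overlap are not read as support. With I/R replicate 3, the I/R mouse with the lowest Sfrp2, left out, the log2 fold change was 2.02 (limma adjusted p 0.0134). This was the only 1 of 20 alternatives in which Sfrp2 was called. Sfrp2 was 17.2 ± 12 CPM in activated fibroblasts and had means of 2.37 to 11.8 CPM in the other clusters. With the activated cluster left out the log2 fold change was 0.61 (adjusted p 0.483).

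Fzd2 and Wnt9a were also set side by side in the fibroblast clusters, without a test. Fzd2 was 14.9 ± 1.94 CPM in activated fibroblasts, 13.4 ± 3.21 CPM in cluster 18, which is not beyond the spread, and had means of 3.24 to 5.72 CPM in the others. Wnt9a was lower in activated fibroblasts, with 0.5 ± 0.78 CPM from 5 UMIs against 7.01 to 14.6 CPM. Over all fibroblasts neither gene was called. Fzd2 had a log2 fold change of 0.56 (adjusted p 0.275) and Wnt9a of −0.78 (adjusted p 0.231) in I/R against sham, and with I/R replicate 3 left out Wnt9a was called at −1.23 (adjusted p 0.0301).

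Frzb, Sfrp1, Lrp6 and Lgr4 were not called in fibroblasts. Frzb was 46.3 ± 19.3 CPM in sham and 35.6 ± 4.1 CPM in I/R, with a 95% interval of the log2 fold change from −0.83 to 0.22. For Sfrp1 the interval was −0.71 to 0.88, for Lrp6 −0.47 to 0.18 and for Lgr4 −0.22 to 0.63. Axin2 was 2.72 ± 0.859 CPM in sham and 1.68 ± 0.264 CPM in I/R, from 21 and 20 UMIs (log2 fold change −0.45, adjusted p 0.494). Wnt5a (−0.45, adjusted p 0.62) and Rspo3 (0.51, adjusted p 0.579) were not called either, and their intervals reached past 1 on the log2 scale in at least 1 direction. Wnt2 and Wif1 were below the filter in fibroblasts. The median log2 fold change was −0.01 over the 22 members and 0.01 over all genes tested.

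**Figure D4:**
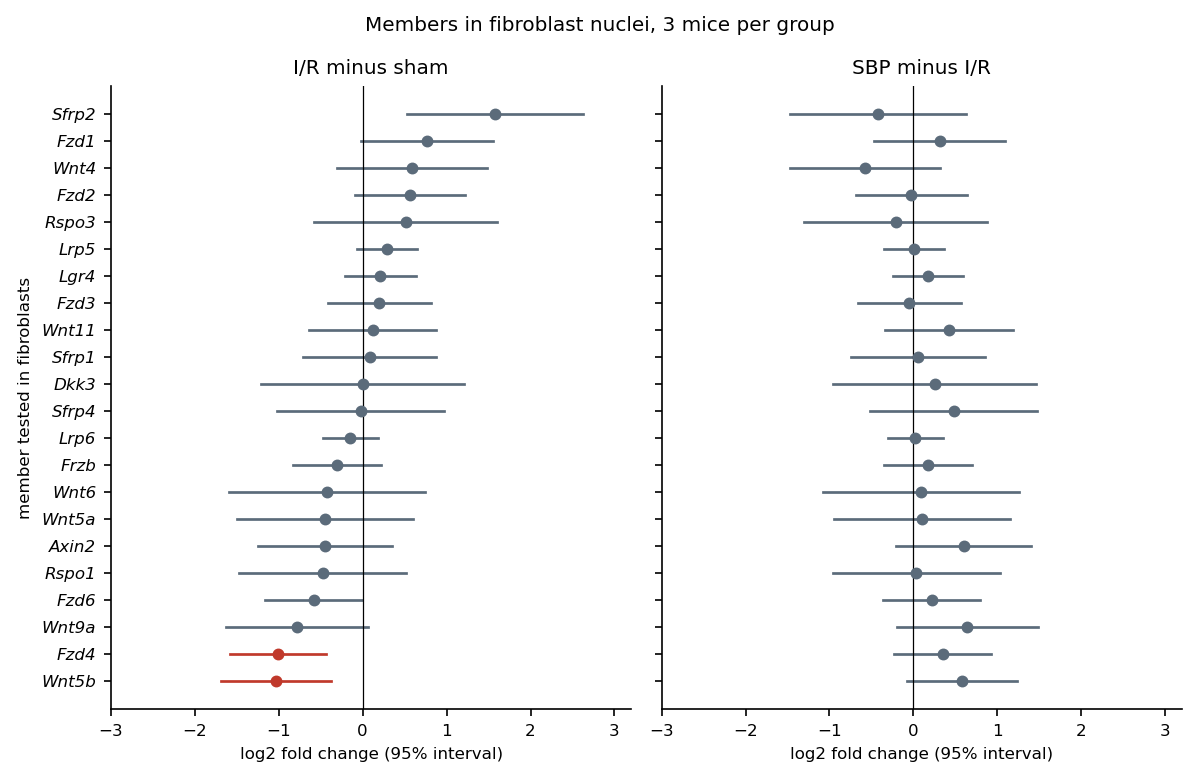
Log2 fold change with 95% interval of the 22 members tested in fibroblasts (rows), for I/R minus sham (left) and SBP minus I/R (right), red where called. Fzd4 and Wnt5b are the 2 red points on the left, at −1.01 and −1.03; no point is red on the right, and every interval there includes 0.

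Other genes of the pathway were taken from 3 lists, to be read against the 11.5% of all genes called in fibroblasts. Of 30 tested genes of signal transduction in the cytoplasm and nucleus, 1 was lower in I/R fibroblasts and 0 were higher. It was Btrc, part of the ligase that marks beta-catenin for destruction (255 ± 12.6 to 183 ± 7.1 CPM, adjusted p 0.032). Of 9 feedback and target genes, Ccnd1, which drives entry into the cell cycle, fell from 39.7 ± 4.46 to 12.7 ± 0.683 CPM (log2 fold change −1.57, adjusted p 0.00038), and Myc rose from 5.09 ± 2.98 to 12.5 ± 1.41 CPM (1.25, adjusted p 0.0326). Of 23 genes of secretion and beta-catenin-independent signalling, 2 were lower and 0 were higher. Reck, which with Adgra2 passes Wnt7 signals to Fzd4 in brain vessels and also restrains matrix proteases, had a log2 fold change of −0.66 (adjusted p 0.0136), and Prickle1, a planar cell polarity gene, of −0.60 (adjusted p 0.0356).

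In cardiomyocytes 0 of 15 members were called in I/R against sham, where 0.813% of 12911 genes were called. By unadjusted p, 1 member lay under 0.05. It was Fzd4, at 9.4 ± 2.36 CPM in sham and 4.67 ± 1.38 CPM in I/R and a log2 fold change of −0.88 with an SE of 0.283 (adjusted p 0.2, limma). The 3 I/R values of 3.09, 5.6 and 5.32 CPM lay below the sham values of 6.78, 10.1 and 11.3 CPM, as was so in some direction for 16.4% of all genes. Markers of other types were present in these cardiomyocyte sums. Endothelial markers were 111 to 167 CPM in sham and 84.9 to 133 CPM in I/R, and mural markers 412 to 493 and 248 to 421 CPM. Fibroblast markers were higher in I/R, at 315 to 387 CPM against 257 to 283 CPM. The part of such RNA in cardiomyocyte Fzd4 was not tested. Lgr4 was 76.7 ± 16.7 CPM in sham and 98 ± 15.6 CPM in I/R (adjusted p 0.405). Wnt2 was 10.4 ± 7.45 and 5.51 ± 3.62 CPM (adjusted p 0.531), and its sham mean rested on replicate 1, at 19 CPM against 6.1 CPM in the others. Axin2 was 3.97 ± 0.276 and 3.37 ± 0.962 CPM (95% interval of the log2 fold change −0.89 to 0.47).

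In endothelial cells 0 of 14 members were called, against 3.1% of 12185 genes, and 1 had an unadjusted p under 0.05. This was Frzb, 1.04 ± 0.412 CPM in sham and 3.67 ± 2.06 CPM in I/R (adjusted p 0.227), a level far below the fibroblast one. Frzb reached the level of the filter in 0 sham, 2 I/R and 1 SBP mice, so it was tested here only because it was high in the injured groups, and its p is no support for a difference. Fibroblast markers in these sums ranged from 871 to 1098 CPM in sham and from 1046 to 1483 CPM in I/R, and their part in the difference was not tested. Fzd4 was 81.5, 48.5 and 97.2 CPM in sham and 83.4, 80.6 and 99.3 CPM in I/R, with no difference beyond the spread (log2 fold change 0.26, adjusted p 0.575). Rspo3 was 3.82 ± 2.82 and 5.74 ± 2.38 CPM (0.60, adjusted p 0.52) and Wnt2 5.92 ± 3.04 and 5.91 ± 5.77 CPM.

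In myeloid cells 0 of the 4 members that passed the filter (Lrp5, Lrp6, Lgr4 and Fzd4) were called, although 17.3% of 10740 genes were. Lrp6 was 357, 263 and 348 CPM in sham and 301, 182 and 283 CPM in I/R (log2 fold change −0.36, adjusted p 0.26). I/R replicate 2, with most of its myeloid nuclei in cluster 24, had the lowest value. Fzd4 was 6.96 ± 3.23 CPM in sham and 12.5 ± 3.41 CPM in I/R (0.80, adjusted p 0.183), and reached the level of the filter in 1 sham, 3 I/R and 2 SBP mice. Of the other pathway genes, the numbers called are to be read against the same 17.3%. Of 27 cytoplasmic and nuclear genes 1 was higher and 2 were lower, of 5 feedback genes 1 was lower, and of 16 secretion and non-canonical genes 1 was lower. They were Tnks, higher (0.52, adjusted p 0.0355), and Tle1, a co-repressor of TCF factors (−1.64, adjusted p 0.00356), Bcl9, a beta-catenin co-activator (−1.44, adjusted p 0.0022), Ccnd1 (−1.53, adjusted p 0.00728) and Prickle1 (−1.22, adjusted p 0.00662). Sham and I/R myeloid nuclei lay in different clusters, as given above.

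The response of Fzd4 to I/R was compared between cell types. A test of the difference within mice gave a log2 fold change in fibroblasts 1.27 below that in endothelial cells (limma adjusted p 0.0374) and 1.81 below that in myeloid cells (adjusted p 0.0181), and in cardiomyocytes 1.68 below that in myeloid cells (adjusted p 0.00988). Between fibroblasts and cardiomyocytes the difference was −0.13 with an SE of 0.354 (adjusted p 0.884). The adjustment ran over all genes of each pair of types. The difference between fibroblasts and endothelial cells lost its call without any of the sham replicates (adjusted p 0.0819 to 0.103), I/R replicate 1 (0.0899), I/R replicate 2 (0.13) or SBP replicate 3 (0.0523), and without the activated cluster (0.161). That between fibroblasts and myeloid cells lost it without sham replicate 1 (0.0619), I/R replicate 2 (0.0636) or the activated cluster (0.0572). That between cardiomyocytes and myeloid cells kept its call in all 18 alternatives run. Fzd4 was called in neither type alone (limma adjusted p 0.2 and 0.183). Myeloid Fzd4 reached the level of the filter in 1 sham, 3 I/R and 2 SBP mice. The I/R mice, where its mean was highest, thus met the filter by themselves. The p-values of differences that include myeloid cells are therefore not read as support, whatever the number of alternatives that kept them. In myeloid sums, fibroblast markers were 617 to 814 CPM in sham and 677 to 979 CPM in I/R. Endothelial markers there were 342 to 415 CPM in sham and 214 to 252 CPM in I/R. In their own types these markers summed to at least 3897 and 6016 CPM. The part of such stray RNA in the myeloid and cardiomyocyte values was not tested. Of all genes, 1.1% were called between fibroblasts and endothelial cells in this test, 7.07% between fibroblasts and myeloid cells, 5.18% between cardiomyocytes and myeloid cells, 2.61% between fibroblasts and cardiomyocytes, 3.4% between endothelial and myeloid cells and 0.0176% between cardiomyocytes and endothelial cells. No other member was called between types in I/R against sham. In SBP against I/R 0% of genes and 0 members were called in every pair. In SBP against sham the 1 member called was again Fzd4, in cardiomyocytes against myeloid cells, where 5.49% of genes were called. It lost its call in 11 of 18 alternatives, among them those without sham replicates 1 or 2, I/R replicate 3 or any of the SBP replicates (adjusted p 0.0509 to 0.108). The share was 2.65% between fibroblasts and cardiomyocytes, 0.545% between fibroblasts and endothelial cells, 5.08% between fibroblasts and myeloid cells, 0.0705% between cardiomyocytes and endothelial cells and 2.5% between endothelial and myeloid cells.

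**Figure D5:**
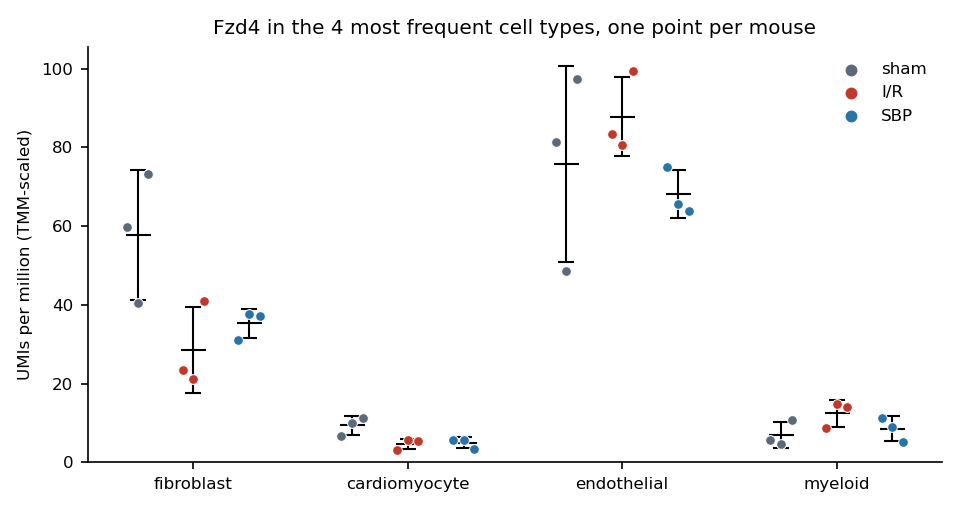
TMM-scaled CPM of Fzd4 (y axis from 0) in 4 cell types, with 1 point per mouse, colours for the groups and bars for mean and SD. The sham mean lies above the I/R mean in fibroblasts and cardiomyocytes and not in endothelial or myeloid cells.

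Over all nuclei of a mouse together, 1 of 30 members was called in I/R against sham, where 10.8% of 16044 genes were. Wnt4, a ligand of several tissues that can act with or without beta-catenin, rose from 0.937, 1.36 and 1.05 CPM in sham to 2.62, 3.12 and 2.02 CPM in I/R, from 45 and 130 UMIs. The log2 fold change was 0.75 with an SE of 0.179 (adjusted p 0.0292, limma). The groups did not overlap, as was so for 30.5% of the genes. In such sums a change in the mix of cells cannot be told apart from a change within cells. Myeloid nuclei numbered 365 to 769 per sham mouse and 1010 to 2191 per I/R mouse. Within types, Wnt4 was not called in fibroblasts (0.59, adjusted p 0.414) or endothelial cells (0.61, adjusted p 0.458). The call was lost without sham replicate 1 (limma adjusted p 0.0959), sham replicate 3 (0.0926) or I/R replicate 2 (0.0946). It was also lost without I/R replicate 1, where the adjusted p lay just above 0.05 and Wnt5a was called instead. Without I/R replicate 3 the members called were 5, namely Wnt4, Fzd1, Fzd2 and Sfrp2, which were higher, and Fzd6, which was lower. Sfrp2 reached the level of the filter over all nuclei in 1 sham, 3 I/R and 3 SBP mice, so its call is not read as support.

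SBP was compared with I/R and with sham, and these comparisons share their SBP mice with each other and the I/R or sham mice with the comparison above. Between SBP and I/R limma called 0 members in fibroblasts, cardiomyocytes, endothelial cells, myeloid cells and all nuclei, and 0% of all genes in each. Unadjusted p-values under 0.05 numbered 1 among the members, for Wnt9b in endothelial cells, and 464, 274, 628, 421 and 697 among all genes in these 5 fits. In fibroblasts the SBP mice did not overlap the I/R mice for 3 of 22 members (Frzb, Axin2 and Sfrp4, all higher in SBP), as for 8.4% of all genes. Axin2 reached the level of the filter in 2 sham, 0 I/R and 1 SBP mice. It was thus tested only because it was higher outside I/R, and its lack of overlap is no support for a difference. In endothelial cells the SBP and I/R mice did not overlap for 1 of 14 members, as for 9.41% of genes. It was Fzd4, lower in SBP, at 75.1, 65.5 and 63.8 CPM (log2 fold change −0.36, 95% interval −0.83 to 0.12). Capillary nuclei, which had more Fzd4 than endocardial ones, were 50.7% to 59.3% of endothelial nuclei in SBP and 53.4% to 65.9% in I/R. The part of these shares in the difference was not tested. In cardiomyocytes the SBP and I/R mice did not overlap for 0 of 15 members and 5.58% of genes. In myeloid cells they did not overlap for 0 of 4 members and 8.99% of genes. Over all nuclei they did not overlap for 1 of 30 members (Sfrp4, higher in SBP) and 8.25% of genes. In fibroblasts the log2 fold change in SBP against I/R was 0.35 for Fzd4 (95% interval −0.23 to 0.93), 0.57 for Wnt5b (−0.08 to 1.23), −0.42 for Sfrp2 (−1.47 to 0.62) and 0.64 for Wnt9a (−0.20 to 1.48). All 4 intervals include 0 and leave room for changes of nearly 1 or more on the log2 scale.

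Wnt9b in endothelial cells was 1.84, 10.4 and 2.14 CPM in I/R and 30.1, 4.6 and 11.7 CPM in SBP. The log2 fold change was 1.48 with an SE of 0.661 (adjusted p 0.956, limma). SBP replicate 1 had the highest value and the groups overlapped. Endocardial nuclei, which carried most of the gene, were 39.8% of the endothelial nuclei in that mouse, 28.6% and 30.5% in SBP replicates 2 and 3 and 22.4% to 35% in the I/R mice. Dkk2 spread as widely in endothelial cells, at 28.6, 2.29 and 33.1 CPM in SBP and 15.7, 12.1 and 0.357 CPM in I/R.

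Against sham, SBP also had 0 members called in each of the 4 types and in all nuclei, where 5.95% of genes were called in fibroblasts, 0.139% in cardiomyocytes, 1.97% in endothelial cells, 13% in myeloid cells and 2.97% in all nuclei. Unadjusted p-values under 0.05 were found for 3 members in fibroblasts, 2 in cardiomyocytes, 3 in endothelial cells, 0 in myeloid cells and 3 in all nuclei, and for 2574, 1734, 1859, 3113 and 3530 of all genes. Of the 3 endothelial members, Frzb and Wnt4 reached the level of the filter in 0 sham mice and passed it through I/R and SBP mice alone, so their p-values are not read as support; the third was Wnt9b. Fibroblast Fzd4 was below every sham mouse in all 3 SBP mice, with a log2 fold change of −0.66 (adjusted p 0.185), and the groups were apart like this in some direction for 27.2% of all genes. Of the other pathway genes, 0 of 30 of the cytoplasm and nucleus, 1 of 9 feedback and 0 of 23 secretion and non-canonical genes were called in fibroblasts, 0 of 29, 0 of 7 and 0 of 22 in cardiomyocytes, 0 of 29, 1 of 8 and 0 of 25 in endothelial cells and 2 of 27, 2 of 5 and 1 of 16 in myeloid cells. Ccnd1 was lower in SBP than in sham in fibroblasts (−1.70, adjusted p 0.000559), endothelial cells (−0.94, adjusted p 0.0233) and myeloid cells (−1.11, adjusted p 0.0424). Myeloid cells also had lower Bcl9 (−1.15), Prickle1 (−1.06) and Trabd2b (−1.62), a protease that inactivates Wnt proteins, and higher Gsk3b (0.55), the kinase that marks beta-catenin, with adjusted p from 0.0103 to 0.0231.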

How the data were processed

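Nuclei of 9 mouse hearts (3 sham, 3 I/R, 3 SBP) were sequenced with a 3' 10x Genomics assay. The authors deposited, for each nucleus and gene, the natural log (ln) of 1 plus the UMI count scaled to a fixed total per nucleus. The submitters' processing notes name Cell Ranger 4.0, STAR, Seurat 3.2.0 and GRCm38; whether reads in introns were counted is not given in the sources used here. UMIs were recovered by reversing the scaling, and at least 99.9996% of values per mouse came out whole within 0.1 UMI. Totals were 10329520 to 18205985 UMIs per mouse. Intervals from limma cover the spread between mice.

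Nuclei were clustered with Scanpy 1.11.5 (2000 variable genes without the members and pathway genes, 30 principal components, 20 neighbours, Leiden resolution 1.5), giving 27 clusters, which were named from marker genes. No correction between libraries was applied, whereas the paper corrected its samples for batch effects with fastMNN. A doublet caller marked 85 nuclei (0.173%), too few for it to be taken as having worked. They were removed, leaving 49086, and removal of the 2168 top-scoring nuclei was an alternative. Of all nuclei 535 in 2 clusters were left unnamed. Of the named nuclei 78.8% had the same type by marker score. By marker score there were 738 to 860 fibroblasts per sham mouse and 1060 to 1204 per I/R mouse. By cluster there were 1405 to 1572 and 1442 to 1696.

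UMIs were summed per mouse and type (at least 20 nuclei), scaled by TMM and tested with limma 3.58.1 (R 4.3.3, trend and robust) on log2(CPM + 1) in all 9 mice together. The filter required the CPM of 10 UMIs in the median library in 3 samples, and 15 UMIs in total. The procedure was tested on simulated data. Alternatives were a pseudocount of 0.5 or 5 CPM, no filter or 30 UMIs, plain library sizes, the mean of ln values, only the samples compared, a replicate block, other doublet and cell type choices, and each mouse left out. Named in full were members called, the 3 members of highest CPM per frequent type (2 in the others), Axin2, Wif1, Sfrp2, Wnt5a, Wnt2 and Rspo3; other members named were chosen after their values were seen. The members and lists were chosen with earlier results of these data known.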

Additional observations from a re-analysis of the deposited data

Results flagged for a closer look

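Fzd4 is listed here because its log2 fold change differed between cell types by a test of the difference within mice (limma on the differences of log2 values between 2 types of the same mouse, adjusted over all 11738, 10381 or 10141 genes tested). For I/R against sham, the difference was −1.27 between fibroblasts and endothelial cells (−1.01 against 0.26, adjusted p 0.0374), −1.81 between fibroblasts and myeloid cells (−1.01 against 0.80, adjusted p 0.0181) and −1.68 between cardiomyocytes and myeloid cells (−0.88 against 0.80, adjusted p 0.00988). For SBP against sham, it was −1.08 between cardiomyocytes and myeloid cells (−0.80 against 0.28, adjusted p 0.0367). Of all genes, 1.1%, 7.07%, 5.18% and 5.49% were called in these 4 tests. Myeloid Fzd4 rested on 22 sham, 116 I/R and 50 SBP UMIs, and reached the level of the filter in 1 sham, 3 I/R and 2 SBP mice. It passed the filter through the I/R mice, where it was highest, so the p-values that include myeloid cells are not read as support. Fibroblast and endothelial markers were present in the myeloid and cardiomyocyte sums, as given above. Their part in myeloid or cardiomyocyte Fzd4 was not tested. Sham and I/R nuclei of a type lay in different clusters, and the part of this in the differences was not tested.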

How the results depend on the processing

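In fibroblasts, I/R against sham, the 2 members called became 1 (Fzd4) with a stricter filter (30 UMIs), with plain library sizes, with the replicate block and with cell types from marker scores, and 0 with the mean of the deposited natural log values, with only the 6 samples compared, and without the activated cluster (chosen after seeing the data). With 1 mouse left out it ranged from 0 to 3, being 0 without sham replicate 3 or I/R replicate 2 and 3 (Fzd4, Sfrp2 and Wnt9a) without I/R replicate 3. Over all 21 alternatives Fzd4 was called in 14 (adjusted p 0.00403 to 0.196), Wnt5b in 7 (0.0166 to 0.176) and Sfrp2 in 1 of 20 (0.0134 to 0.483). Over all nuclei the count of 1 became 0 with the stricter filter and with only the 6 samples compared, and ranged from 0 to 5 with 1 mouse left out (0 without sham replicates 1 or 3 or I/R replicate 2, 5 without I/R replicate 3). Wnt4 lost its call in 5 of 18 alternatives (adjusted p 0.017 to 0.0959). The differences of Fzd4 between cell types, recomputed by a choice made after seeing the data, kept their call for I/R against sham in 9 of 20 alternatives between fibroblasts and endothelial cells (adjusted p 0.0122 to 0.161), in 16 of 19 between fibroblasts and myeloid cells (0.00915 to 0.0636) and in 18 of 18 between cardiomyocytes and myeloid cells (0.00437 to 0.043), and in 7 of 18 for SBP against sham (0.00808 to 0.108). With the replicate block, the first had an adjusted p of 0.0578 and the last of 0.0506. These 4 differences and the 10 single fold changes recomputed did not change direction. The other 13 counts of members stayed at 0 under every alternative run. The cause of these changes was not tested.

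Replicate numbers are shared between groups but did not pair the mice. Deviations of same-numbered mice from their group means correlated between −0.401 and 0.296 over the 5 fits. With the replicate block, 1 member was called in fibroblasts, I/R against sham (Fzd4, adjusted p 0.0153, while Wnt5b had 0.0744), and 1 over all nuclei.

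The depth limits what can be seen. In a fibroblast sum of median size 1 UMI is 0.276 CPM, and in a myeloid sum 0.735 CPM, and 4 of 46 members passed the filter in myeloid cells.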

Other observations

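In 4 places of the genome a pair of Wnt genes lie next to each other, and in each pair 1 gene was near absent. They were Wnt6 (96 UMIs over all nuclei) and Wnt10a (3) on chromosome 1 with 6.2 kb between them, Wnt9a (604) and Wnt3a (6) on chromosome 11 with 16.2 kb, Wnt9b (203) and Wnt3 (2) on chromosome 11 with 24.3 kb, and Wnt10b (56) and Wnt1 (13) on chromosome 15 with 11.7 kb.

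Longer genes had more UMIs, among the members (Spearman's rho 0.313 over 46 genes) as among all genes with a position (rho 0.424 over 23084 genes). These are correlations across genes in the same nuclei, and genes are not independent replicates.

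Wif1 in cardiomyocytes, without TMM scaling, was 0.551, 4.93 and 0.491 CPM in sham, 0.746, 0.806 and 0.373 CPM in I/R and 0.535, 0.873 and 2.09 CPM in SBP. The highest mice, sham replicate 2 and SBP replicate 3, were also the highest 2 for endocardial Dkk2, at 54.1 and 77.8 CPM without TMM scaling. They were the highest 2 for Dkk3 in fibroblasts too, at 23 and 29.3 TMM-scaled CPM. These mice also had the largest shares of fibroblasts in cluster 18, the cluster with most Dkk3, at 10.5% and 7.71%. Other mice did not keep this order. I/R replicate 1 had 7.36% in cluster 18 with 0.746 CPM of Wif1, and SBP replicate 1 had 3.18% although its endocardial Dkk2 was high, as given above. The pattern was chosen after the values were seen and was not tested.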
